A study of Homo sapiens with 6 samples.

Results

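The 51 genes described here encode the autophagy machinery and the lysosome. They were named as a list and looked up among the array probe sets that carry a single gene symbol. Of the 51, 50 had such a probe set among the 19775 genes of the array; GLB1 (beta-galactosidase) did not and is not analysed here. The list holds 22 genes of the autophagy machinery, 3 transcription factors and 26 lysosomal genes, GLB1 among the last. For each gene the probe set with the highest mean signal over the 6 arrays was used, and its other probe sets served as checks. The groups were 3 arrays of cells carrying a baculoviral miR-10b decoy vector and 3 arrays of cells carrying a baculoviral control decoy vector. Both used U87-2M1, an invasive subline recovered from U87 glioma cells after a lung metastasis assay in animals, at passage 4 and grown in hypoxia. A decoy is a transcript built to bind a microRNA, here miR-10b, so both groups carried the insect virus vector and differed in the decoy it held. The series has a single subline, and separate cultures are not named in the labels, so the p-values measure only how far these arrays spread, which may be technical.

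Autophagy encloses cytoplasm in a double membrane and delivers it to the lysosome. The ULK kinases start the process and a lipid kinase complex around beclin marks the membrane. ATG2, ATG9 and WIPI proteins supply and shape it, and a ubiquitin-like conjugation system then fixes ATG8 proteins (the LC3 and GABARAP families) to it. Cargo receptors such as p62 tie the load to ATG8 proteins and are themselves degraded. The lysosome breaks the load down with cathepsins, glycosidases and lipases that work at the low pH set by a proton pump, the V-ATPase. Many genes of both systems share a promoter element, the CLEAR element, that is bound by the MiT/TFE factors TFEB, TFE3 and MITF. Glioma cells in low oxygen are known to use autophagy to recycle material.

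Signals below are quantile-normalized between arrays, and differences are log2(signal + 7) with the miR-10b decoy minus the control decoy, given with a standard error (SE) and limma's adjusted p. Rose and fell are used for genes with an adjusted p below 0.05 over all 13842 tested genes. The deposited signals did not share a scale: the trimmed mean signal was 155 to 163 on the decoy arrays, against 159 to 192 on the control arrays, the highest being control replicate 3. Of 10 astroglial and glioma markers 6 lay over the filter level of 15.6, while GFAP was under it. Among these 6, VIM, CD44 and SOX2 did not pass, BCAN (1.18, adjusted p = 0.000519) and SLC1A3 (0.73, adjusted p = 0.0114) rose, and NES fell (-0.38, adjusted p = 0.00775). Macrophage markers, which matter here because macrophages are rich in lysosomes, were summed over 9 genes. The sums were 108 to 153 with the miR-10b decoy and 103 to 166 with the control decoy. Of the 9, 2 lay over the filter level and did not pass. These were CSF1R (mean 50.1 with the miR-10b decoy, 52.1 with the control decoy) and ITGAM (22.5 and 30.4). The others, PTPRC, CD14 and CD163 among them, lay under it. Of 6 endothelial markers 2 lay over the level, with sums of 140 to 167 in decoy arrays and 173 to 219 in controls, and PECAM1 fell (-0.40, adjusted p = 0.0135). Of 6 epithelial markers 2 lay over it, with sums of 110 to 125 in decoy arrays and 104 to 116 in controls. The ratio of the 3' to the 5' actin signal, which rises as RNA degrades, was 7.36 to 10.6 with the miR-10b decoy and 5.27 to 6.22 with the control decoy (exact permutation p = 0.1, the smallest that 3 against 3 arrays allow), while the same ratio for GAPDH was 0.943 ± 0.00748 with the miR-10b decoy and 0.945 ± 0.0192 with the control decoy (SD, n = 3 each; exact permutation p = 0.9). The part of the astroglial and endothelial markers and of the actin ratio in the results was not tested. In bulk RNA, fewer cells of a type and less RNA per cell cannot be told apart.

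With the miR-10b decoy 12 of the 50 tested members rose, 12 fell and 26 did not pass. Over all tested genes 16.6% rose and 17.4% fell, 34.0% together. All 50 members passed the filter on low signals, which used the mean deposited signal. CTSZ did so only through its controls, and TFEB had 2 normalized control signals under the filter level. The 3 decoy arrays lay to one side of all 3 control arrays for 28 of the 50 members, against 46.4% of all tested genes. The median difference over the members was 0.02, against -0.02 over all tested genes. Among the autophagy machinery 8 of 22 rose and 1 fell, a share of 36.4% higher, with a median of 0.04. Among the 25 tested lysosomal genes 2 rose and 10 fell, a share of 40% lower, with a median of -0.09. These shares were not tested against each other. On the deposited signals without normalization, where the median of all genes was -0.14, 6 members rose and 12 fell (1094 and 2561 of all genes). After centring on the array median 14 rose and 9 fell (2861 and 1740 of all genes).

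**Figure D1:**
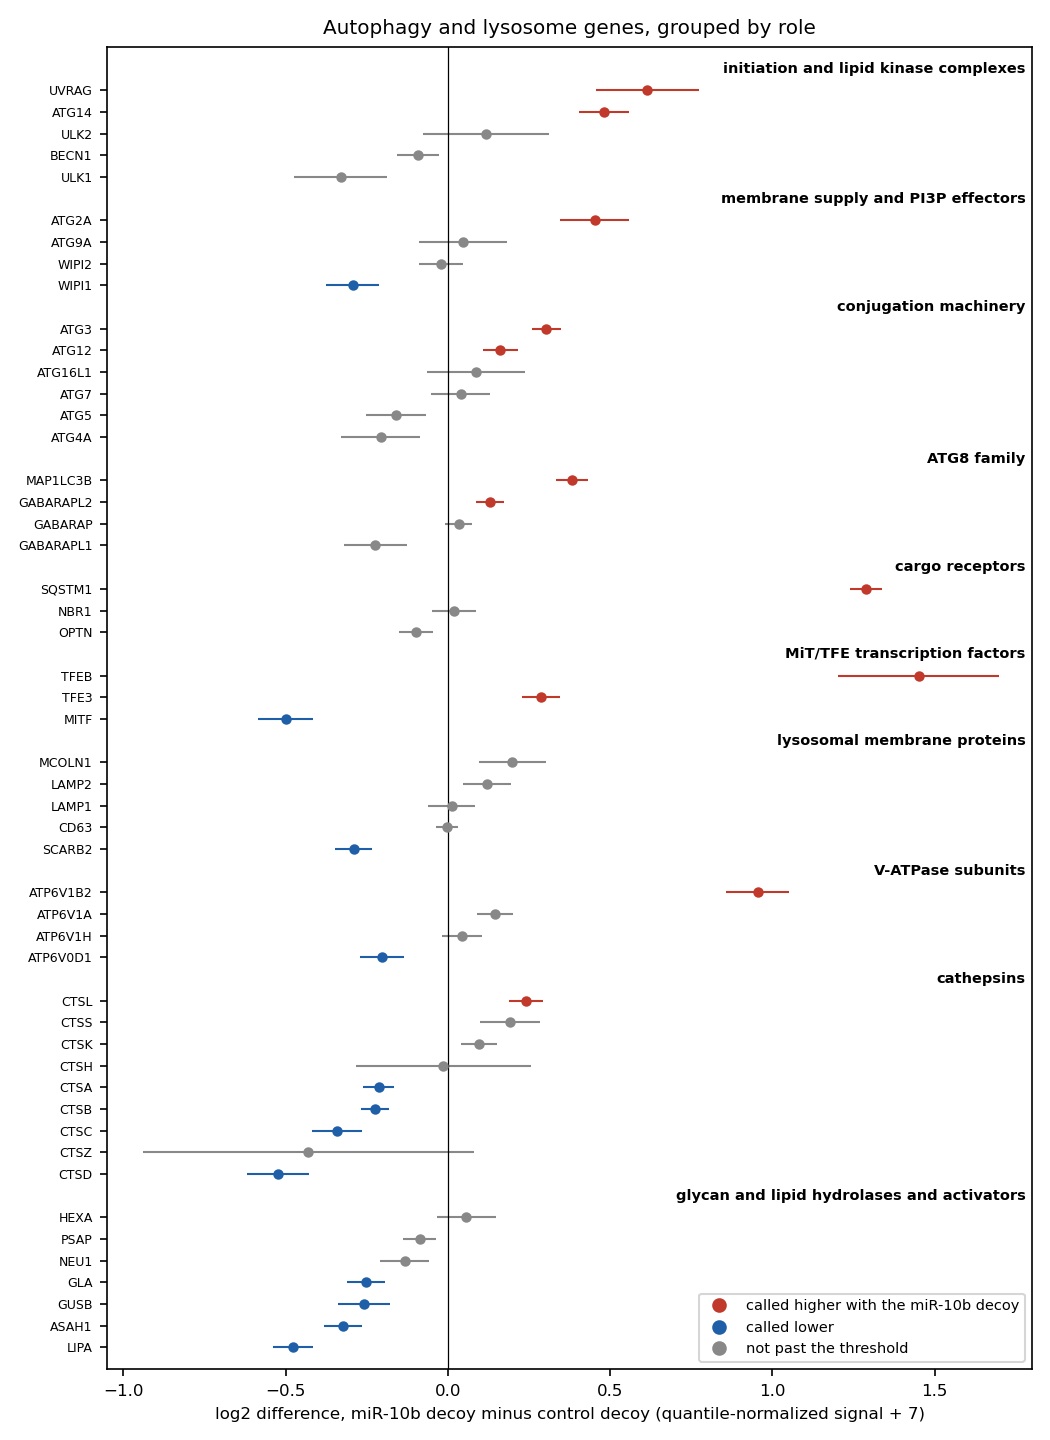
Log2 difference of each of the 50 tested members (points, with the SE from limma as bars; 3 miR-10b decoy arrays minus 3 control decoy arrays), ordered within functional groups. The difference of SQSTM1 is 1.29 and that of TFEB, whose size depends on the offset, 1.45, while in the last group 4 hydrolase genes lie below 0 past the threshold.

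SQSTM1 encodes p62, a cargo receptor and signalling scaffold. It had signals of 6089, 6038.5 and 6682 on the miR-10b decoy arrays, against 2567, 2481 and 2639 on the control arrays. Every decoy array thus stood far above every control array, a difference of 1.29 (SE 0.05, adjusted p = 2.38e-08) or 2.44-fold, and SQSTM1 ranked number 6 by p among all tested genes. It rose under each of the 18 alternatives tried, by 0.81 to 1.32. Of the other SQSTM1 probe sets over the filter level, those with 1.36 and 1.13 passed in the same direction, while 2 dim ones with 0.39 and -0.12 did not pass. The other cargo receptors did not pass with their main probe sets: NBR1 had a difference of 0.02 and OPTN (optineurin) one of -0.10, while the second OPTN probe set had -0.22 (adjusted p = 0.034 over all probe sets). OPTN did pass when its probe sets were averaged and without moderation.

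Among the ATG8 proteins, which coat the autophagosome membrane, MAP1LC3B (LC3B) had signals of 2867, 2693 and 2880 with the miR-10b decoy, against 2199, 2104 and 2163 with the control decoy. The groups did not overlap and the difference was 0.38 (SE 0.05, adjusted p = 0.000124), with the second LC3B probe set at 0.33 (adjusted p = 0.00442). GABARAPL2 (GATE-16) had 3530, 3507 and 3384 in decoy arrays, against 3197, 3176 and 3152 in controls, a smaller rise of 0.13 (SE 0.04, adjusted p = 0.0337). GABARAPL1, a hypoxia- and FOXO-responsive member, had 429, 417 and 403 with the miR-10b decoy, against 572, 454 and 444 with the control decoy. Its decoy arrays all lay below the controls, but the difference of -0.22 (SE 0.10, adjusted p = 0.0994) did not pass, here or under any of the 18 alternatives (adjusted p from 0.0595 to 0.376), and GABARAP had 0.03 (adjusted p = 0.578). On the deposited signals neither rise held: MAP1LC3B had 0.23 (adjusted p = 0.18) and GABARAPL2 turned to -0.02 (adjusted p = 0.942). The GABARAPL2 call was also lost without any 1 of 5 arrays, all but miR-10b decoy replicate 3 (adjusted p from 0.0583 to 0.111).

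The conjugation machinery attaches ATG8 proteins to lipid. ATG3, the enzyme that carries out the last transfer, had 3093, 3010.5 and 3139.5 on decoy arrays, against 2555, 2476 and 2457 on control arrays. This separation gave a difference of 0.30 (SE 0.04, adjusted p = 0.000341), which did not pass on the deposited signals (0.14, adjusted p = 0.455) or with the mean of both probe sets (0.27, adjusted p = 0.0808). ATG12, the ubiquitin-like protein joined to ATG5, had 1401, 1466 and 1523 with the miR-10b decoy, against 1304, 1313.5 and 1304 with the control decoy. Its rise of 0.16 (SE 0.05, adjusted p = 0.0389) was lost without any 1 of 5 arrays, all but miR-10b decoy replicate 1 (adjusted p from 0.0803 to 0.103), and another of its probe sets had -0.12 (adjusted p = 0.38 over all probe sets). ATG5 (-0.16), ATG7, the activating enzyme (0.04), ATG16L1 (0.09) and the protease ATG4A (-0.21) did not pass, though a second ATG5 probe set had -0.33 (adjusted p = 0.0372 over all probe sets). ATG4A did pass without miR-10b decoy replicate 2. Thus 2 of 6 genes in this group rose and 0 fell, where 34.0% of all genes passed in either direction.

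In the lipid kinase complex, ATG14, the subunit that directs it to autophagosomes, had 502, 528 and 484 with the miR-10b decoy, against 356, 382 and 342 with the control decoy. UVRAG, the subunit of the alternative complex on endosomes, had 105, 121 and 112 in decoy arrays, against 79.4, 82.4 and 54.8 in controls. Both subunits were higher on every decoy array, by 0.48 for ATG14 (SE 0.08, adjusted p = 0.000622) and 0.61 for UVRAG (SE 0.16, adjusted p = 0.0111). Beclin (BECN1), which both complexes share, had -0.09 (SE 0.06, adjusted p = 0.3). The initiating kinase ULK1 had 158, 125 and 136 in decoy arrays, against 200, 195 and 141 in controls, a difference of -0.33 (SE 0.14, adjusted p = 0.0983) that passed on the deposited signals and without control replicate 3. ULK2 had 0.12 and also did not pass.

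Of the proteins that supply and shape the membrane, ATG2A, which transfers lipid, had 363, 394 and 391.6 with the miR-10b decoy, against 245, 267 and 327 with the control decoy. It rose by 0.45 (SE 0.11, adjusted p = 0.00611). WIPI1, which binds the lipid made by the kinase complex, had 1750, 1825 and 1899 in decoy arrays, against 2557, 2230.5 and 1961 in controls, the closest of these being decoy replicate 3 and control replicate 3. WIPI1 was the 1 gene of the machinery that fell (-0.29, SE 0.08, adjusted p = 0.0158). The call was lost when control replicate 1 (-0.20, adjusted p = 0.0529) was left out, likewise miR-10b decoy replicate 1 (-0.27, adjusted p = 0.0561), and the second WIPI1 probe set had a difference of -0.0015. The scramblase ATG9A (0.05) and WIPI2 (-0.02) did not pass.

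The MiT/TFE factors went in different directions. TFEB had signals of 47.8, 58.5 and 49.1 on the miR-10b decoy arrays, against 10.9, 14.2 and 19.1 on the control arrays, of which 2 lay under the filter level. The decoy arrays all lay above the controls (fitted difference 1.45, SE 0.25, adjusted p = 0.00087). Since the control mean of 14.7 lay under the filter level, the size of this difference is set by the offset added before the log: it was 1.779 with an offset of 1 and 0.84 with an offset of 32. The second TFEB probe set lay under the filter level in both groups, and the mean of both had 0.63 (adjusted p = 0.0247). TFE3 had 1177, 1120 and 1207 with the miR-10b decoy, against 948, 974 and 945 with the control decoy. Its difference of 0.29 (SE 0.06, adjusted p = 0.00261) did not pass on the deposited signals (0.19, adjusted p = 0.278) or with the mean of all its probe sets (adjusted p = 0.131). MITF had 277, 301 and 294 in decoy arrays, against 440, 423 and 380 in controls. This was a fall of 0.50 on the log2 scale (difference -0.50, SE 0.08, adjusted p = 0.00087), and a second MITF probe set fell too (-0.41, adjusted p = 0.00646).

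**Figure D2:**
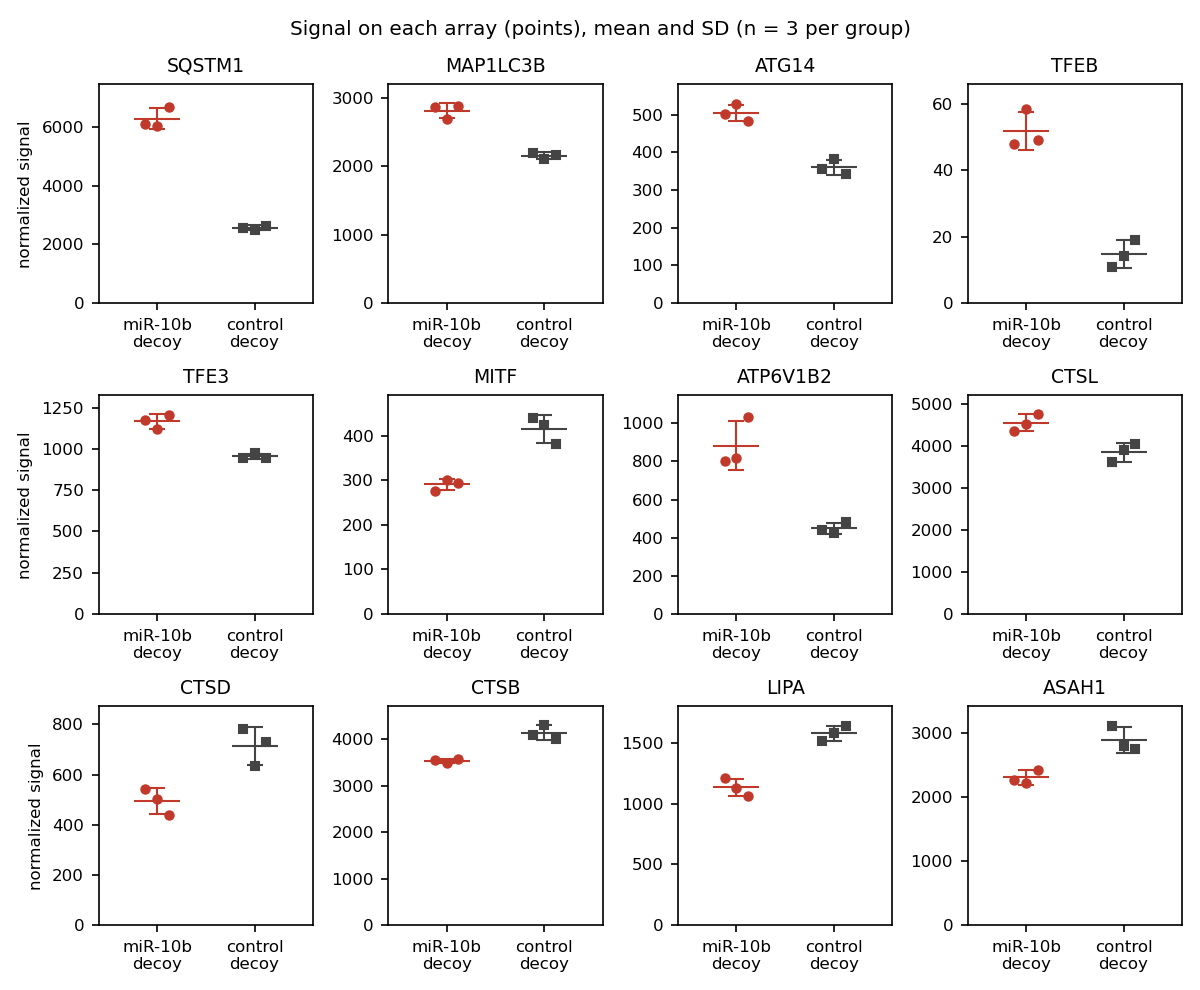
Quantile-normalized signal on each array (points) with the mean and SD (bars, n = 3 per group) for 12 members, the miR-10b decoy to the left of the control decoy; axes start at 0. The 12 were picked from members that passed with separate groups, so no panel overlaps by that choice. Groups were separate for 28 of the 50 members and 46.4% of all tested genes. SQSTM1 lies between 6038.5 and 6682 with the miR-10b decoy and between 2481 and 2639 with the control decoy.

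Promoter sequences bear on these factors because the core of the CLEAR element can be searched for by its letters. RefSeq promoters (GRCh38.p14, 250 bases before the start site and 50 from it) were at hand for 40 of the 51 members. The palindrome TCACGTGA was found in 5 of them (12.5%), against 1.04% of all 27305 promoters and 1.43% of the 15843 promoters of protein-coding genes. It stood in 12 of 102 promoters of the related genes described further on (11.8%). The shorter CACGTG, which the palindrome contains, was in 9 of the 40 and in 7.43% of all promoters. The core of the antioxidant response element, TGACNNNGC on either strand, was in 9 of the 40 and in 13.6% of all promoters. All 5 member promoters with the palindrome are shown. Each line runs 5′ to 3′ on the gene's strand, with TCACGTGA in capitals.
ATG3: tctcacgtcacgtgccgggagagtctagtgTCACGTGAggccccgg
LAMP1: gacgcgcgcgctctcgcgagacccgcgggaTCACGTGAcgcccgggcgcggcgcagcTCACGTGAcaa
MCOLN1: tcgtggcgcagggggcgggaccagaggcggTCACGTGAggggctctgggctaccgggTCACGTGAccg
ATP6V0D1: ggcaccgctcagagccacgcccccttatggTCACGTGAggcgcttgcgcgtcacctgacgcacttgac
CTSA: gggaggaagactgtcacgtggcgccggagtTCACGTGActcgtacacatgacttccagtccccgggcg

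The ATG3 stretch lies at chr3:112561943-112561988 on the minus strand, that of LAMP1 at chr13:113297180-113297247 on the plus strand and that of MCOLN1 at chr19:7522552-7522619 on the plus strand. The ATP6V0D1 stretch lies at chr16:67481180-67481247 on the minus strand and that of CTSA at chr20:45891279-45891346 on the plus strand. LAMP1 and MCOLN1 hold the palindrome 2 times. Of the 5 genes ATG3 rose, ATP6V0D1 and CTSA fell, and LAMP1 and MCOLN1 did not pass. Among member promoters in the table, the palindrome was in 1 of 10 for genes that rose, 2 of 10 for genes that fell and 2 of 19 for genes that did not pass. A match describes these letters in this window and is not a measured binding site.

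Lysosomal membrane proteins were mostly short of the threshold. SCARB2 (LIMP-2), which carries glucocerebrosidase to the lysosome, had 1872, 1914 and 1821 with the miR-10b decoy, against 2204, 2191.5 and 2478 with the control decoy. It fell (-0.29, SE 0.06, adjusted p = 0.00243). Of its 3 other probe sets over the filter level, that with -0.40 passed (adjusted p = 0.0204 over all probe sets). Those with -0.36 and -0.30 did not pass. LAMP1, an abundant membrane glycoprotein, had 5557, 5421 and 5461 in decoy arrays, against 5076, 5017 and 6311 in controls, where control replicate 3 alone stood above the decoy arrays. Its difference of 0.01 (adjusted p = 0.927) turned to -0.14 on the deposited signals (adjusted p = 0.443). The calcium channel MCOLN1 (0.20, SE 0.10, adjusted p = 0.158) and the tetraspanin CD63 (-0.0037, adjusted p = 0.949) did not pass.

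LAMP2, needed for the fusion of autophagosomes with lysosomes and made as several isoforms, gave opposite readings from its 4 probe sets. The probe set with the highest mean had 1719, 1827 and 2076 with the miR-10b decoy, against 1613, 1829 and 1720 with the control decoy. These arrays overlapped, and the difference of 0.12 (SE 0.07, adjusted p = 0.237) turned to -0.01 on the deposited signals (adjusted p = 0.958). The other 3 probe sets all fell. The brightest of them averaged 698 ± 7.89 with the miR-10b decoy and 1091 ± 43.1 with the control decoy (SD, n = 3 each), a difference of -0.64 (adjusted p = 3.2e-05 over all probe sets). The remaining probe sets had -0.69 (adjusted p = 5.78e-05) and -0.41 (adjusted p = 0.00558). Which isoforms each probe set reads is not given in the sources used here. With the mean of all its probe sets LAMP2 had -0.40 (adjusted p = 0.00118), so the gene's call depends on the probe set.

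Other members also had probe sets that disagreed. For CTSS the main probe set had 0.19 (adjusted p = 0.133), whereas another averaged 1252 ± 103 in decoy arrays and 766 ± 64 in controls (SD, n = 3 each), a rise of 0.70 (adjusted p = 0.000107). For HEXA the main probe set had 0.06 and a dimmer one rose by 0.79 (adjusted p = 0.024). In contrast all 5 CTSB probe sets over the filter level fell, and so did all 4 of ASAH1. Of the 24 members that passed, 4 (ATG12, SQSTM1, CTSC and GUSB) had another probe set over the filter level with the opposite sign, none of these passing on its own (limma over all probe sets, adjusted p from 0.301 to 0.731).

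**Figure D3:**
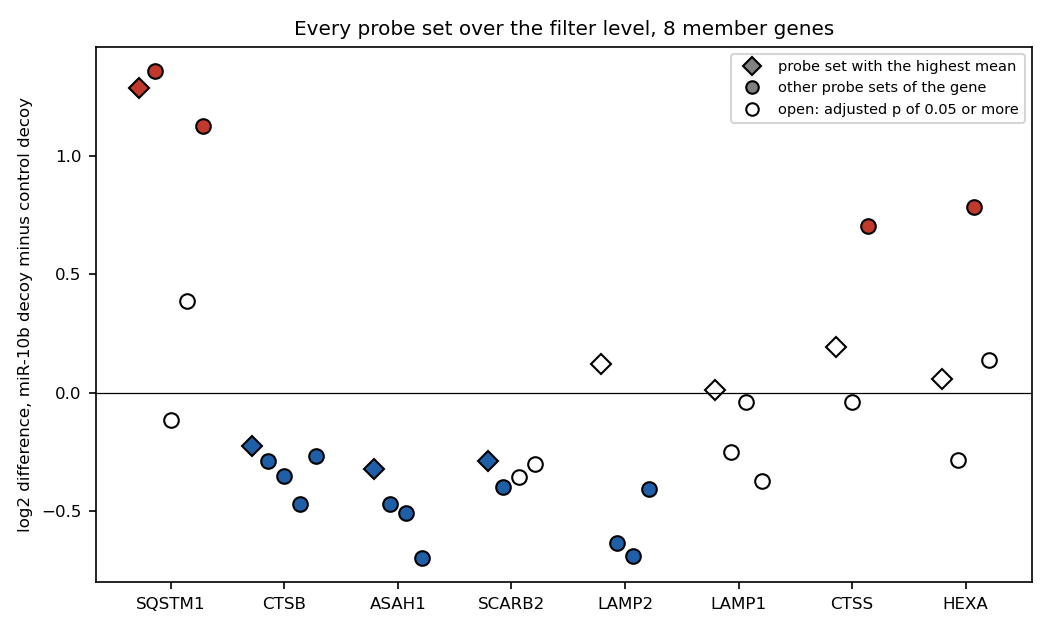
Log2 difference (miR-10b decoy minus control decoy) of every probe set over the filter level for 8 members; diamonds mark the probe set with the highest mean, circles the others, and open symbols an adjusted p of 0.05 or more over all probe sets. The 5 CTSB probe sets lie on one side of 0, whereas for LAMP2 the main probe set is at 0.12 and the others are at -0.64, -0.69 and -0.41.

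The V-ATPase subunits were split. ATP6V1B2, the B subunit of the cytosolic motor found in most tissues, had 802, 818 and 1031 with the miR-10b decoy, against 441, 427 and 482 with the control decoy. Even the lowest decoy array was far above the highest control array, and the gene rose by 0.95 (SE 0.10, adjusted p = 2.43e-05) or 1.94-fold. It rose under all 18 alternatives, by 0.84 to 1.04. The neighbouring A subunit ATP6V1A had 1790, 1766 and 1959 in decoy arrays, against 1674, 1683 and 1623 in controls, which did not overlap but missed the threshold at 0.15 (SE 0.06, adjusted p = 0.065). ATP6V1A did pass after centring on the array median. ATP6V1H had 0.04 (adjusted p = 0.622). ATP6V0D1, which links the membrane ring to the motor, had 1216, 1420 and 1201 in decoy arrays, against 1469, 1457 and 1481 in controls. It fell by 0.20 (difference -0.20, SE 0.07, adjusted p = 0.038), a call lost without any 1 of 5 arrays, all but miR-10b decoy replicate 2 (adjusted p from 0.0821 to 0.12), and after centring on the array median (adjusted p = 0.175).

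Among the 9 cathepsins, the proteases of the lysosome, 4 fell and 1 rose, where 17.4% and 16.6% of all tested genes did. CTSD, the main aspartic protease, had 543, 502 and 440 with the miR-10b decoy, against 780, 633 and 730 with the control decoy. CTSC, which activates serine proteases, had 334, 339 and 309 in decoy arrays, against 420, 411 and 418 in controls. Both were lower on every decoy array, CTSD by -0.52 (SE 0.10, adjusted p = 0.00147) and CTSC by -0.34 (SE 0.08, adjusted p = 0.00494). With the mean of all its probe sets CTSC had -0.11 (adjusted p = 0.314).

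The cysteine protease CTSB had 3549.5, 3494 and 3577 with the miR-10b decoy, against 4099, 4314 and 4011 with the control decoy. CTSA, which protects beta-galactosidase and neuraminidase, had 2278, 2327 and 2183 in decoy arrays, against 2663, 2636 and 2575 in controls. The falls were small beside that of CTSD but the arrays of each gene were tight, with -0.23 for CTSB (SE 0.04, adjusted p = 0.00198) and -0.21 for CTSA (SE 0.05, adjusted p = 0.00455). On the deposited signals they were -0.38 and -0.37, and without the intensity trend CTSA missed the threshold (adjusted p = 0.0507). CTSL, another cysteine protease, went the other way with 4360, 4536 and 4763 in decoy arrays, against 3610, 3911 and 4046.5 in controls. It rose by 0.24 (SE 0.05, adjusted p = 0.00414), but had 0.07 on the deposited signals (adjusted p = 0.727). CTSS, CTSK (0.10) and CTSH (-0.01) did not pass, and CTSZ, at -0.43 (SE 0.51), ranged from 5.54 to 33.4 among the decoy arrays alone. CTSS did pass after centring on the array median, with either mean of probe sets and without miR-10b decoy replicate 1.

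Of the 7 tested glycan and lipid hydrolases and activators 4 fell and 0 rose, against 17.4% of all genes that fell. LIPA, the acid lipase that frees cholesterol from its esters, had 1208, 1128 and 1063 with the miR-10b decoy, against 1517, 1583 and 1635.5 with the control decoy. ASAH1, the acid ceramidase, had 2256, 2221 and 2425 in decoy arrays, against 3110, 2794 and 2750 in controls. In both genes the lowest control array exceeded the highest decoy array, with -0.48 for LIPA (SE 0.06, adjusted p = 0.00015) and -0.32 for ASAH1 (SE 0.06, adjusted p = 0.0013). The other ASAH1 probe sets over the filter level fell further, between -0.70 and -0.47, and the mean of those over the level had -0.50, whereas the mean of both LIPA probe sets, 1 of them under the filter level, had -0.25 (adjusted p = 0.35).

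GLA, the alpha-galactosidase, had 890, 922 and 936 with the miR-10b decoy, against 1114, 1074.5 and 1090 with the control decoy, a difference of -0.25 (SE 0.06, adjusted p = 0.0052) that missed the threshold after centring on the array median (-0.17, adjusted p = 0.0595). GUSB, the beta-glucuronidase, had 691, 595 and 573 in decoy arrays, against 763, 729 and 729 in controls. Its difference of -0.26 (SE 0.08, adjusted p = 0.0246) was lost on leaving out any 1 of 4 arrays, control replicates 1 and 2 and miR-10b decoy replicates 2 and 3 (adjusted p from 0.0612 to 0.0872), and with the mean of both probe sets it turned to 0.14 (adjusted p = 0.597). The neuraminidase NEU1 (-0.13, adjusted p = 0.206), the sphingolipid activator PSAP (-0.09, adjusted p = 0.224) and the hexosaminidase HEXA (0.06, adjusted p = 0.677) did not pass. The second PSAP probe set had -0.20 (adjusted p = 0.0321 over all probe sets), and PSAP passed with either mean of probe sets and when arrays were scaled to a trimmed mean.

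Related genes were taken from 6 lists that do not hold the members. Of the 121 tested genes on them 23 rose (19%) and 25 fell (20.7%), against 16.6% and 17.4% over all genes. Of 24 tested genes of lysosomal mTORC1 control, 5 rose (20.8%) and 2 fell (8.33%). FNIP2, which with folliculin (FLCN) controls the Rag GTPases, averaged 1093 ± 40.8 with the miR-10b decoy and 475 ± 73.3 with the control decoy (SD, n = 3 each), a difference of 1.20 (SE 0.10, adjusted p = 5.8e-06). The Rag GTPases RRAGC (0.94, SE 0.06) and RRAGD (0.80, SE 0.12), which hold mTORC1 at the lysosome, rose too, as did FLCN (0.67, SE 0.09). RRAGC had 2027.5 ± 139 in decoy arrays and 1055 ± 12.8 in controls (SD, n = 3 each). These 4 genes passed under all 18 alternatives, RRAGC at 0.52 with the mean of all its probe sets, while MTOR (0.08), RPTOR (-0.31) and TSC1 (0.05) did not pass, values chosen for mention after they were seen.

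Of the 25 tested further hydrolases and cofactors 12 fell (48%) and 1 rose (4%), against 17.4% and 16.6% of all genes. DNASE2, the acid nuclease of the lysosome, averaged 500 ± 31.6 with the miR-10b decoy and 789 ± 38.3 with the control decoy (SD, n = 3 each), a difference of -0.65 (SE 0.07, adjusted p = 5.31e-05). The thioesterase PPT1 (-0.38, SE 0.06), the carboxypeptidase SCPEP1 (-0.37, SE 0.06) and PLBD2 (-0.45, SE 0.06) fell as well. With the mean of all probe sets 4 of the list fell and 2 rose (11.4% and 10.6% of all genes), the calls of SCPEP1 (adjusted p = 0.557) and PLBD2, then at 0.12 (adjusted p = 0.736), being lost. With the mean of only the probe sets over the filter level 9 fell and 2 rose (14.4% and 13.3% of all genes).

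Lysosomal membrane and sorting proteins went both ways, with 6 of 19 higher (31.6%) and 5 lower (26.3%), against 16.6% and 17.4% of all genes. NPC1, which exports cholesterol, averaged 2454 ± 183 with the miR-10b decoy and 1468 ± 51.6 with the control decoy (SD, n = 3 each), a rise of 0.74 (SE 0.06, adjusted p = 5.8e-06). M6PR, a receptor that sorts hydrolases by their mannose 6-phosphate tag, rose by 0.72 (SE 0.08) and the cystine exporter CTNS by 0.71 (SE 0.10). GNPTAB, which begins the making of that tag, averaged 611 ± 32.3 with the miR-10b decoy and 865 ± 28.1 with the control decoy (SD, n = 3 each), a difference of -0.50 (SE 0.07, adjusted p = 0.000183). These 4 genes passed under all 18 alternatives, with NPC1 at 0.47 under the mean of the probe sets over the filter level.

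Of the 15 tested further V-ATPase subunits 6 rose (40%) and 2 fell (13.3%), against 16.6% and 17.4% of all genes. ATP6V0A2 (0.72, SE 0.12), ATP6V1C1 (0.53, SE 0.09) and ATP6V0B (0.38, SE 0.05) rose, and ATP6V0E2 fell (-0.58, SE 0.09). On the deposited signals 2 of the list rose and 2 fell (7.9% and 18.5% of all genes), and so with the mean of all probe sets (10.6% and 11.4% of all genes). With that mean ATP6V0A2 (0.36, adjusted p = 0.115) and ATP6V1C1 (0.13, adjusted p = 0.504) no longer passed, and on the deposited signals ATP6V0B did not (0.23, adjusted p = 0.17).

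Of 19 further core autophagy genes 1 rose (5.26%) and 2 fell (10.5%), against 16.6% and 17.4% of all genes: RB1CC1 (FIP200), the scaffold of the ULK complex, had 0.19, the WIPI relative WDR45B -0.21 and the protease ATG4B -0.28. Each of these calls was lost when some single arrays were left out, in RB1CC1 all but control replicate 1 (adjusted p from 0.0618 to 0.121). WDR45B was lost without control replicate 1 or 3 or miR-10b decoy replicate 2 or 3 (adjusted p from 0.0526 to 0.0758), and ATG4B without control replicate 2 or 3 or miR-10b decoy replicate 1 or 3 (adjusted p from 0.0519 to 0.0909). Of 19 receptors and fusion factors 4 rose (21.1%) and 2 fell (10.5%), against the same shares of all genes. BNIP3, a mitophagy receptor induced by hypoxia, averaged 3660 ± 94.2 with the miR-10b decoy and 5179 ± 155 with the control decoy (SD, n = 3 each), a difference of -0.50 (SE 0.04, adjusted p = 6.49e-06). The tethering subunit VPS11 (0.72, SE 0.13), PLEKHM1, which links lysosomes to the fusion machinery (0.42, SE 0.08), and the p62-like receptor TAX1BP1 (0.31, SE 0.05) rose. On the deposited signals PLEKHM1 (0.34, adjusted p = 0.0544) and TAX1BP1 (0.18, adjusted p = 0.316) did not pass, and 1 of the list rose. With the mean of all its probe sets TAX1BP1 had 0.20 (adjusted p = 0.0333).

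**Figure D4:**
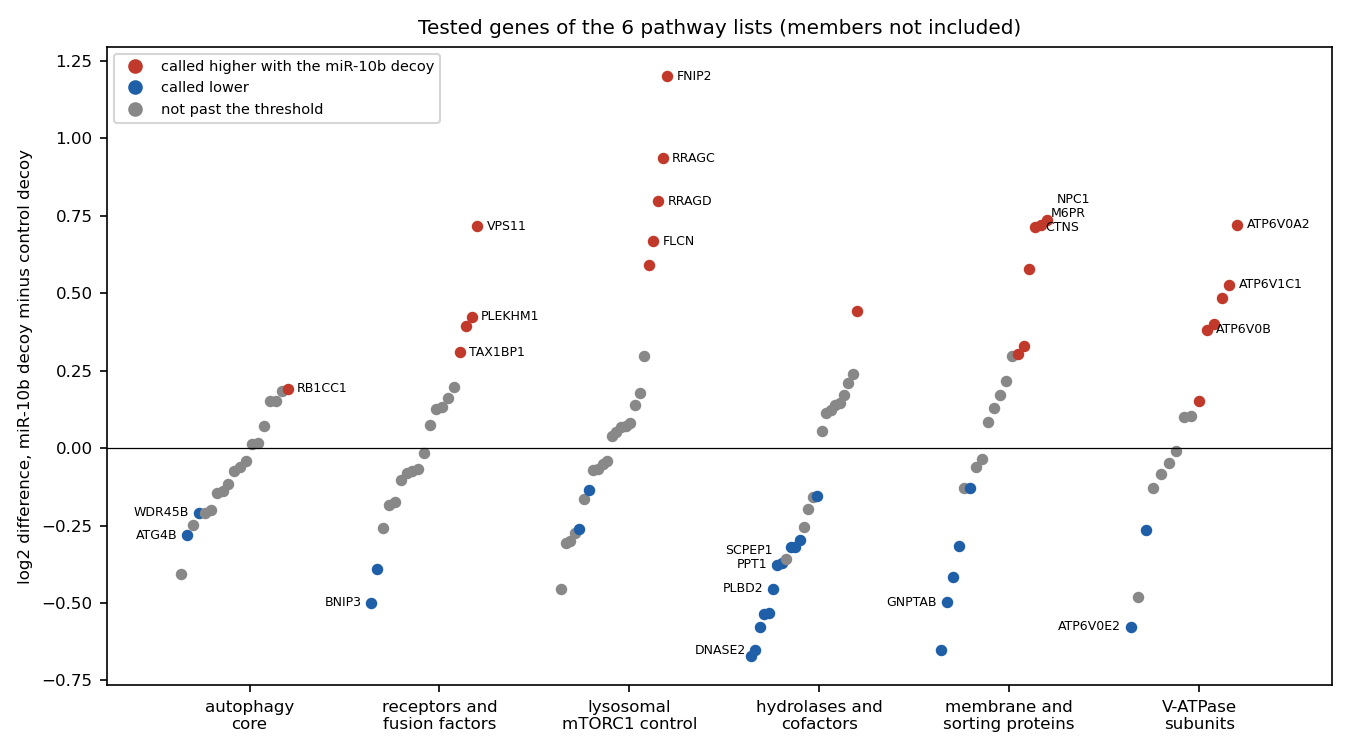
Log2 difference (miR-10b decoy minus control decoy) of each tested gene of the 6 related lists, in ascending order within a list and coloured by call; the labelled genes are those named in the text. FNIP2, RRAGC, RRAGD and FLCN stand at 1.20, 0.94, 0.80 and 0.67, and among the hydrolases 12 of 25 lie below 0 past the threshold.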

How the data were processed

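RNA from 6 samples was measured on 1-colour arrays of 54675 probe sets, 1 array each, from cRNA made with 0.25 µg of total RNA, per the labels' protocols. The authors deposited linear signal intensities, and MAS5 is named in the submitters' processing notes; for its version and scaling target, both not given in the sources used here, nothing was assumed. Precision is limited by the number of arrays. Of the probe sets, 41097 carried 1 symbol, 1801 several and 11777 none in the platform annotation; control probe sets (62 on the array) were taken out, after which 41091 with 1 symbol stayed, of which 41037 matched a RefSeq gene (GRCh38.p14) by Entrez identifier. Signals were turned into log2(signal + 7) and quantile-normalized, since earlier results of these data had shown unequal scales. Each of 19775 genes was read from its probe set of highest mean deposited signal, with a filter at the 30th percentile of that mean (15.6). Groups came from the sample titles and were compared with limma 3.58.1 (R 4.3.3; lmFit, eBayes with an intensity trend, 7.68 prior and 4 residual degrees of freedom), two-sided, with Benjamini-Hochberg adjustment over 13842 genes. The fit was tested on simulated data, with an outcome that is not reported here. Members, lists and tests were chosen with earlier results of these data known. Array signals are given for members past the threshold with separate groups and for 9 set genes. Those of ULK1 and ATP6V1A are given outside this rule, with their values seen. From each related list up to 4 genes past the threshold with the smallest p are named. Other genes named were chosen after their values were seen. The alternatives were 3 other scalings, offsets of 1 and 32, no filter or one at the 50th percentile, 2 ways of averaging probe sets (1 added after the data were seen), no trend, no moderation, the replicate number as a block, and leaving out each array.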

Additional observations from a re-analysis of the deposited data

How the results depend on the processing

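Of the 24 members that passed, ASAH1, ATG14, ATP6V1B2, CTSB, MITF, SCARB2 and SQSTM1 passed in the same direction under all 18 alternatives. TFEB, whose normalized control mean lay under the filter level, was not tested at the 50th percentile filter, and its value ran from 0.63 to 1.779 under the others. On the deposited signals 1094 genes rose over all, 6 members (4 of the autophagy machinery, where 2 fell, and 1 lysosomal gene) and 13 genes of the related lists, and the member median was -0.12. The lysosomal genes that rose numbered 4 when arrays were centred on their median, where 20.7% of all genes rose. They numbered 1 without the intensity trend or without moderation, where 13% and 10.5% of all genes rose. With no trend 0 genes of the machinery fell, where 1800 of all genes rose and 1806 fell. With the mean of all probe sets 1462 genes rose and 1574 fell, 14 of the related lists fell and the member median was -0.083. Without moderation 1451 rose and 1379 fell, and 15 of the related lists fell. Leaving out each array in turn, 0 to 2 genes of the machinery fell, 10 to 12 members rose and 9 to 12 fell, beside 1873 to 2150 and 1831 to 2147 of all genes. With the replicate number as a block 22 members passed, with 2222 genes higher and 2336 lower over all. ATG12 (adjusted p = 0.0566) and GABARAPL2 (adjusted p = 0.0558) were lost, as was RB1CC1 (adjusted p = 0.0503). Same-numbered arrays deviated with correlations of 0.029, -0.032 and -0.015. These values gave no sign of pairing by number, which 3 arrays per group cannot settle. Signs turned for LAMP1 (-0.14 on the deposited signals, -0.033 scaled to a trimmed mean, -0.16 with either mean of probe sets, -0.039 and -0.047 without control replicate 1 and 2), LAMP2 (-0.012 on the deposited signals, -0.40 with either mean), GABARAPL2 (-0.017 on the deposited signals), GUSB (0.14 with either mean) and PLBD2 (0.12 with either mean). Single probe sets turned the sign of ATG12 (-0.12), CTSC (0.23), GUSB (0.54), SQSTM1 (-0.12), LAMP1 (-0.25, -0.038 and -0.37) and LAMP2 (-0.64, -0.69 and -0.41). The cause of these shifts was not tested. Without moderation the calls of UVRAG (adjusted p = 0.0874), ATG2A (adjusted p = 0.081), CTSD (adjusted p = 0.0588) and CTSL (adjusted p = 0.0672) ended.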
